A study of Mus musculus with 24 samples.

Results

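In limb buds of control mouse embryos at embryonic day E12.5, 4301 H3K27ac regions were found that no other H3K27ac peak list of the study held. H3K27ac is acetylation of lysine 27 of histone H3. The regions were chosen by merging all peaks of 4 lists that shared 1 bp or more into 49367 union regions, and by keeping those with a peak of the E12.5 control list alone. They made up 13.6% of the 31631 union regions that the E12.5 control list marked. That choice used presence and absence in these lists, so the count, the scores of the regions and their absence elsewhere are descriptions and not findings. The other lists were labelled Sox9cKO E12.5 and Sox9null E11.5, both from Sox9-deficient limb buds, and control E11.5. Each of the 4 groups had 1 library, made with the same H3K27ac antibody (Abcam ab4729). The alleles, the Cre driver of the conditional knockout, the strain, the number of pooled limb buds and whether fore- or hindlimbs were taken are not stated in the labels. With 1 library a group no difference between conditions could be tested, and the intervals below are 95% Wilson intervals that cover counting error only.

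H3K27ac is laid down at active promoters and enhancers, the stretches of DNA where transcription factors switch genes on. SOX9 is the transcription factor that limb mesenchyme needs to form cartilage, and it acts with SOX5 and SOX6 on enhancers of genes for cartilage matrix such as collagen II, matrilins and link protein. Between these stages of limb development, mesenchymal cells condense and the first cartilage rudiments appear, flanked by future joints, tendon and connective tissue.

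The regions lay mostly away from promoters. Of 32851 promoter windows of 300 bases in the RefSeq table (build GRCm38.p6), the regions overlapped 120, from 111 genes, 51 of them protein-coding. From these windows, the promoters of 4 genes are shown, picked for the roles of the genes in the skeleton. They belong to Matn4 (chr2:164405111-164405410), which encodes the cartilage protein matrilin 4, Nkx3-2 (chr5:41764171-41764470), a homeobox repressor that favours chondrocytes, Pthlh (chr6:147263964-147264263), a secreted peptide that holds growth plate chondrocytes in an immature state, and Prelp (chr1:133921352-133921651), a leucine-rich proteoglycan of cartilage and other connective tissue. All are on the minus strand, each is written 5′ to 3′, and the capitals mark the bases from the annotated gene start on.
Matn4: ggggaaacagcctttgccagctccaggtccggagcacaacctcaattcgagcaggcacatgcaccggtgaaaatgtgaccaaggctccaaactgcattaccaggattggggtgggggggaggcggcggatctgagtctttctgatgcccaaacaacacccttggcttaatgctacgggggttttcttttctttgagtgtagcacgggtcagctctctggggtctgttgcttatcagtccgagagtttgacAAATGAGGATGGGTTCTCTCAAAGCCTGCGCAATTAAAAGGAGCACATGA
Nkx3-2: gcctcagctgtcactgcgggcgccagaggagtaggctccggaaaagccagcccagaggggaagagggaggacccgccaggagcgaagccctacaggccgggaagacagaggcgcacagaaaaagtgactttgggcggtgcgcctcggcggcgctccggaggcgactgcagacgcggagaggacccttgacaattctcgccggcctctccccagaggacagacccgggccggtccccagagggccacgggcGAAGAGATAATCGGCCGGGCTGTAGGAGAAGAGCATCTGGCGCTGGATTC
Pthlh: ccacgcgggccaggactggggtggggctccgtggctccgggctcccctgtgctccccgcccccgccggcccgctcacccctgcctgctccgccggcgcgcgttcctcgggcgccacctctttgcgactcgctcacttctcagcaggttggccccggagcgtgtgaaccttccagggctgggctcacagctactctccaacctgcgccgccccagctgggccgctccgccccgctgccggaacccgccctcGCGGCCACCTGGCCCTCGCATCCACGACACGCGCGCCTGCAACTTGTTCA
Prelp: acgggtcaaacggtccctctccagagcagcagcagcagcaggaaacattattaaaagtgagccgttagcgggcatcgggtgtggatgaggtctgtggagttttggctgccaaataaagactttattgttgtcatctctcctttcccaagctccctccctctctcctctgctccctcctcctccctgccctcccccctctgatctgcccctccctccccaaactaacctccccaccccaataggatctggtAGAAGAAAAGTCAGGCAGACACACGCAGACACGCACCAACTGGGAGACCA
The windows of Matn4 and Nkx3-2 lay wholly inside a region, and those of Pthlh and Prelp with 226 and 237 of their 300 bases. The Prelp region had a peak of the list labelled Sox9cKO E12.5 at 1.95 kb. The Prelp window begins at an alternative start inside the gene body. A SOX-type sequence AACAAT was found in it on the opposite strand, at bases 124 to 129, 127 bases before that start. Matn4, Nkx3-2 and Pthlh had neither AACAAT nor ACAATG in the window shown. The hairpin of Mir140, a microRNA of cartilage that lies inside the gene Wwp2, was 1238 bp from one of the regions and was singled out after its position was seen. Its 3p mature form (chr8:107551288-107551308, plus strand) is shown with the seed, bases 2 to 8, in capitals.
mmu-miR-140-3p: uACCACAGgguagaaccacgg

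The H3K27ac lists held 36937 peaks for the library labelled Sox9cKO E12.5, 28419 for that labelled Sox9null E11.5, 32821 for control E12.5 and 36045 for control E11.5. Median peak widths were 1332, 1778, 1707 and 1141 bp in the same order, and depth in reads is unknown. Limb mesenchyme genes were marked: every list had a peak at an end of Prrx1, Prrx2, Twist1 and Tbx4. Tbx5, a forelimb gene, had one in the lists labelled Sox9cKO E12.5 and control E11.5 and none in those labelled Sox9null E11.5 and control E12.5. Of 4 endothelial markers, 3, 0, 0 and 2 had a marked gene end in the lists labelled Sox9cKO E12.5 and Sox9null E11.5, control E12.5 and control E11.5. Of 5 erythroid and macrophage markers the counts were 3, 1, 1 and 3. The part of limb position, of peak width and of these other cells in the results was not tested. Of 5 cartilage markers, Col2a1 and Hapln1 had a marked gene end in every list, and Acan, Col9a1 and Matn1 in none. The deposited names of the 2 deficient lists are the reverse of their sample titles, so the list here labelled Sox9null E11.5 carries the name of Sox9cKO E12.5, and the other way round. The titles are used here, and which regions were chosen does not depend on the naming, since a region had to be absent from both. The stage and genotype attached to every value of a deficient list do depend on it. At Tbx5, in the endothelial and erythroid counts and in median peak width, the list labelled Sox9null E11.5 was closer to control E12.5. That labelled Sox9cKO E12.5 was closer to control E11.5. Which naming is right was not tested, so the stage and genotype of both are uncertain. In whole limb buds, fewer cells of a type and less acetylation per cell cannot be told apart.

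The regions were mostly weak peaks of their list. Their authors' score, the value deposited with each peak whose meaning the lists do not give, ran from 50.01 to 654.24, with quartiles of 60.88, 75.83 and 103.44, against a median of 240.03 over all E12.5 control peaks. Of the 4301 regions, 1164 (27.1%) scored 100 or more, 179 (4.16%) scored 200 or more and 36 scored 300 or more. Only 90 (2.09%) reached the median of the whole list. Widths ran from 533 to 3848 bp with a median of 1019 bp, and the regions covered 4.84 Mb, or 7.27% of the length of all E12.5 control peaks. When the E12.5 control regions were split by score into 10 bins of equal number, 49.4% (47.7 to 51.2%) of the lowest bin were in that list alone, 6.73% of bin 5, and in the upper 2 bins 0 of 3163 and 0 of 3164 (upper bound 0.121% in each). Every list showed such a fall with score, so being found in 1 list alone went with a low score in each.

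**Figure D1:**
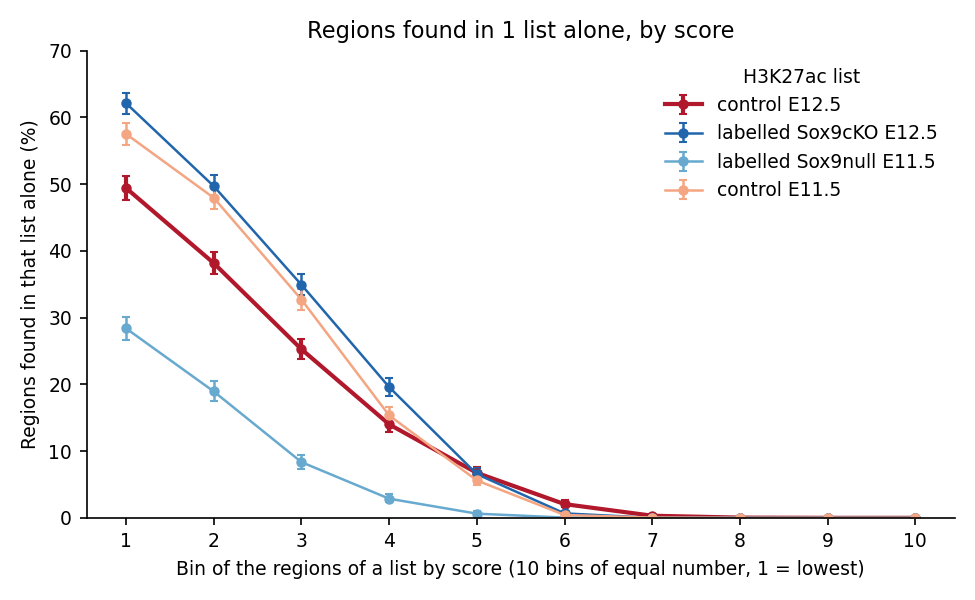
Share of the regions of each H3K27ac list that were found in that list alone (%, vertical axis) in 10 bins of equal number by the authors' score (horizontal axis, 1 = lowest), with 95% Wilson intervals as bars. The share for control E12.5 is 49.4% in the lowest bin and 0 in the upper 2 bins, and all 4 lists fall towards 0.

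Many regions lay close to chromatin that another list marked. The median distance to the nearest peak was 11.6 kb in the list labelled Sox9cKO E12.5, 11.3 kb in that labelled Sox9null E11.5 and 12.55 kb in control E11.5. In all, 760 regions (17.7%) were within 1000 bp of a peak of another list, and 184 (4.28%) were over 100 kb from any. Within 10 kb of a region of all 4 lists lay 32.6% of them. The same share was 33.4% for regions found only in the list labelled Sox9cKO E12.5. For those only in the list labelled Sox9null E11.5 it was 37.7%, and for those only in control E11.5 33.5%. At the edge of the rule, regions near Mctp2 and Polr2m touched a peak of another list without overlapping it, and one near Fzd10 missed it by 1 bp. Just outside the rule, regions near Mpp7, Tiam2 and Camsap2 were left out for overlaps of 3, 7 and 8 bp. Of the regions that E12.5 control shared with exactly 1 other list, 972 were shared with the list labelled Sox9cKO E12.5, 1819 with that labelled Sox9null E11.5 and 809 with control E11.5.

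By place, these were sites away from genes' ends. A region within 1000 bp of either end of a protein-coding gene was called a gene-end region, since the gene table gives no strand, and 139 of 4301 (3.23%, 2.74 to 3.80%) were of that kind, against 38.5% of the other regions of the E12.5 control list. Another 1854 (43.1%, 41.6 to 44.6%) lay inside gene bodies, where exons and introns were not told apart, and 2308 (53.7%, 52.2 to 55.1%) lay between genes. Those between genes were a median of 74.1 kb from the nearest gene, and 978 (22.7%, 21.5 to 24.0%) of all regions were over 100 kb from one. In regions found only in the list labelled Sox9cKO E12.5 or only in control E11.5, shares over 100 kb from a gene were 10.1% and 9.75%, and gene-end shares 8.98% and 7.96%. In those found only in the list labelled Sox9null E11.5, the values were 23.4% and 2.61%. In both shares the regions found only in control E12.5 were closest to those of the list labelled Sox9null E11.5, the list with the most similar median peak width, whose part in this was not tested. The X chromosome held 33 regions, 5.27% of the 626 E12.5 control regions on it, the smallest share of any chromosome but Y, where 0 of 6 were found. The largest share was 19.3%, on chromosome 3, with 338 of 1748.

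**Figure D2:**
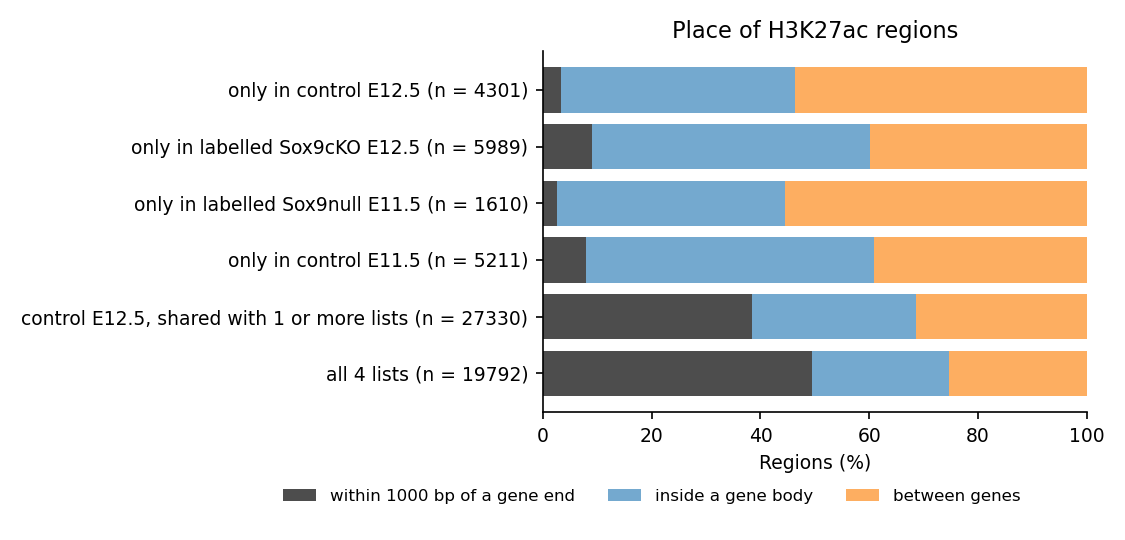
Shares (%, horizontal axis) of H3K27ac regions within 1000 bp of a gene end, inside a gene body and between genes, for 6 classes of union regions. Gene-end regions are 3.23% of those found only in control E12.5, against 38.5% of the E12.5 control regions shared with 1 or more lists.

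The strongest regions lay beside genes of varied function. The highest score, 654.24, belonged to a region of 3848 bp (chr15:11454041-11457888) 54.4 kb from Tars, a threonyl-tRNA synthetase gene, and the nearest peak of another list was 53.4 kb away. Next came one inside Stk4 (chr2:164141443-164143725; score 602.75), a Hippo pathway kinase, and one 173 kb from Wdr11 (chr7:129809016-129811656; 508.97). Others lay inside Lrrc8d (461.83), and near Kif12 (461.4) and Moxd1 (455.55). The region near Kif12 (chr4:63185429-63188041) lay on the side of a cartilage collagen gene, Col27a1, that begins farther along the chromosome at base 63214009. Regions were assigned to the nearest gene by distance alone.

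Cartilage genes appeared among these 25 strongest regions. Number 8 was a region of 2256 bp (chr13:89520465-89522720; score 429.83) 17.8 kb from Hapln1, which encodes the link protein that ties aggrecan to hyaluronan. Its nearest peak in the other lists was 16.2 kb away in the list labelled Sox9cKO E12.5, 16.1 kb in that labelled Sox9null E11.5 and 16.3 kb in control E11.5. Number 11 was the Matn4 promoter shown above (chr2:164403119-164405440; 387.67), with other lists' peaks no nearer than 13.0 kb. Number 21 lay inside Papss2 (chr19:32605194-32608179; 346.52), whose product makes the sulfate donor for cartilage proteoglycans, and number 23 was 368 kb from Has2 (chr15:56293540-56297248; 341.38), a hyaluronan synthase. Further places went to Fam50b, Kctd14, Cubn, Gxylt2, Gm28710, Sema4d, Ackr3, Bcl2, Ppp2r1b, C1qtnf3, Foxp1, Piezo2 and Jazf1, with scores of 330.73 to 414.18. Of the 25, 2 were at a gene end, 11 inside a gene body and 12 between genes. Within 10 kb of another list's peak lay 10 of them, 2 within 1000 bp, and 4 were over 50 kb from any.

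At gene ends, 139 regions marked 138 protein-coding genes, 0.631% of 21887. For 66 of these genes another list had a peak at one of the gene's ends too, and 72 had none in another list. By score the first 10 gene-end regions were those of Matn4 (387.67), Ppp2r1b (351.89), Gm5148 (276.33), Rfpl4b (248.39), Nkx3-2 (245.9), Rflna (235.6), Fign (219.58), 1700025G04Rik (212.81), D630003M21Rik (208.97) and Sptbn5 with Pla2g4b (191.3). Rflna encodes refilin A, a filamin-binding protein of cartilage cells, and Fign a microtubule-severing ATPase. Nkx3-2 stood alone: its gene body and the 20 kb on each side held 0 kb of peaks in the list labelled Sox9cKO E12.5, 0 kb in that labelled Sox9null E11.5, 2.15 kb in control E12.5 and 0 kb in control E11.5. The nearest peak of another list was 53.2 kb away. Pthlh showed the same layout, with 0, 0, 1.46 and 0 kb in the same order and a region of score 159.83 (chr6:147262731-147264189) over its gene end.

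The regions came in clusters. Windows of 100 kb with 3 or more regions, taken without overlap, numbered 341 and held 1239 regions (28.8%, 27.5 to 30.2%). The same count gave 29.5% of the regions found only in the list labelled Sox9cKO E12.5, 11.2% for that labelled Sox9null E11.5 and 24.8% for control E11.5. These shares also move with the number of regions in each class. Of the 12 fullest windows 9 overlapped no protein-coding gene. The first, with 9 regions in 92.0 kb (chr1:90444539-90536492), lay between Ackr3, a scavenger receptor for the chemokine CXCL12, and Cops8. It held 4 peaks in the list labelled Sox9cKO E12.5, 8 in that labelled Sox9null E11.5, 16 in control E12.5 and 6 in control E11.5, covering 6.01, 15.7, 24.9 and 7.96 kb. The second, also of 9 (chr15:93629717-93713126), lay between Prickle1, a planar cell polarity gene, and Adamts20, with 2.19, 4.32, 17.2 and 2.42 kb covered in the same order of lists. In both, some regions stood between sites that other lists marked too. Those at the window's ends lay beyond every peak of another list there.

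A window of 8 regions began before Aopep and ran into the gene (chr13:62956385-63046372). Others of 8 lay between Gas1 and Dapk1 (chr13:60286432-60385406) and inside Lrmda (chr14:22362619-22452333). Gas1 encodes a hedgehog co-receptor that is active in the limb bud. The Gas1 window was broadly marked in some lists: peaks covered 15.2 kb in the list labelled Sox9cKO E12.5, 37.5 kb in that labelled Sox9null E11.5, 46.3 kb in control E12.5 and 7.92 kb in control E11.5. Windows of 7 lay between Tgfbr2, a TGF-beta receptor gene, and Rbms3, and between Slc7a11 and Noct. Windows of 6 were at Slc38a6, between Tmem167 and Atp6ap1l, 336 kb from Rps24 and 4.03 kb from Npvf. A second window with Prickle1 as the nearest gene, also of 6, lay 235 kb from that gene. The Npvf window had 0 kb of peaks in control E11.5, against 11.9 kb in control E12.5.

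In 46 of the 341 windows control E11.5 had no peak, and in 18 no other list had one. The fullest of the 18, chosen after their values were seen, held 5 regions in and beside Gli3 (chr13:15654577-15742971; summed score 656.66), which encodes the hedgehog-pathway factor that limits digit number. Of 4 regions inside Papss2 (chr19:32600722-32615859), the summed score was 864.22, the highest of the 18. Sox5 had 4 regions outside its body (chr6:143644599-143714316; 433.22), and Aff3 4 with 599.1. Another, with 3 regions, lay beside Osr1, a transcription factor gene of limb connective tissue. A window begins at its first region, so peaks of other lists just before it, such as those at the Papss2 gene end, are outside it.

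**Figure D3:**
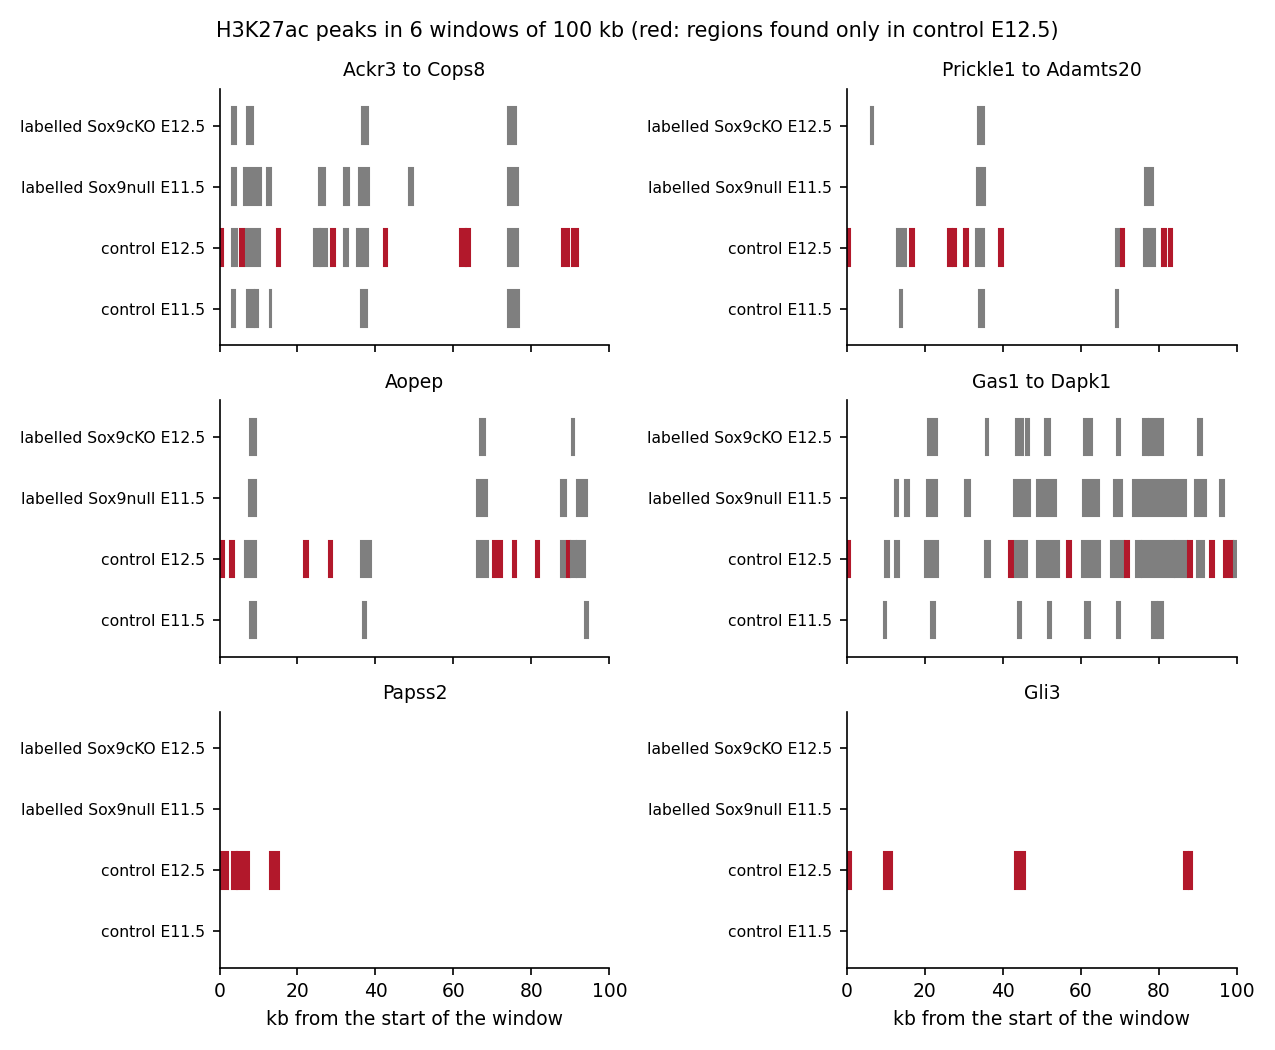
H3K27ac peaks (bars, to scale) of the 4 lists in 6 windows, against distance in kb from the start of the window; red bars are regions found only in control E12.5 and grey bars other peaks. The first 4 windows hold 8 or 9 such regions among peaks of other lists, and the windows at Papss2 and Gli3 hold 4 and 5 with no peak of another list.

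By nearest gene, the 4301 regions fell to 2290 of 21887 protein-coding genes (10.5%), or to 2047 (9.35%) when only regions within 100 kb of the gene were counted. Gas1 and Prickle1 had most, 18 each, 31.0% of the 58 and 47.4% of the 38 E12.5 control regions nearest to them. Aopep and Rad51b had 16, Ttll7 14, Lrmda 13, Sox5 and Noct 12, and Lyplal1, Rps24, Lrig3 and Scfd2 11. None of the 18 at Gas1 was inside the gene; they lay 41.3 to 207 kb from it. In Aopep and Rad51b, by contrast, 14 and 15 of the 16 lay in the gene body. The genes differ in reach: Ttll7 was the nearest gene over 1.065 Mb and Scfd2 over 0.335 Mb.

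Cartilage matrix genes had the largest share, among the 14 gene lists, of regions that reached the median score of the E12.5 control list. Of the 30 genes listed, 14 were nearest to a region, and 22 of the 82 E12.5 control regions nearest to the list (26.8%) were found in that list alone, against 13.6% over all genes. Since promoter peaks were shared so much more often, the share was also taken away from gene ends, a step added after the first shares were seen. It was 21 of 65 (32.3%, 22.2 to 44.4%) for cartilage matrix, against 19.8% (19.3 to 20.4%) over all genes. Of the 22 regions, 8 (36.4%) reached the median score of the whole list, against 2.09% over all regions. Some of the 8 shared a gene, as at Papss2 and at Matn4, so they were not independent of each other. At a score of 100 or more the share was 12 of 22 (54.5%), equal to the 6 of 11 of the endothelium list, against 27.1% over all regions. Among the 100 strongest regions, 8 were nearest to a cartilage matrix gene, the same 8 that reached the median score. Over all 4301 regions the share was 0.512%. In the same 100, chondrogenic regulators had 3, and limb patterning and condensation and adhesion 2 each. Among the 100 strongest found only in the list labelled Sox9cKO E12.5, 1 was nearest to a cartilage matrix gene. The number was 0 for those only in the list labelled Sox9null E11.5 and 0 for those only in control E11.5. The gene lists were chosen with earlier results of these data known, so these shares and numbers are descriptions and were not tested.

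**Figure D4:**
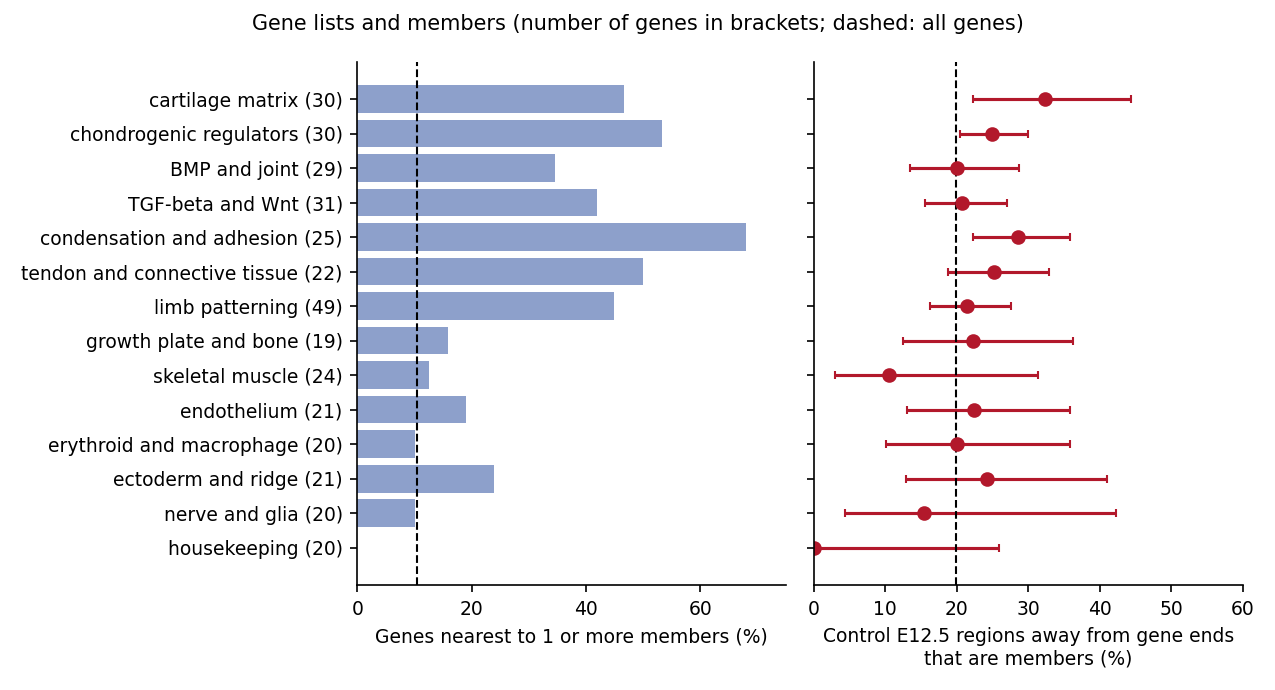
Left, share of the genes of 14 lists that were nearest to 1 or more regions found only in control E12.5 (%); right, share of the E12.5 control regions away from gene ends that were found in no other list (%), with 95% Wilson intervals. Dashed lines give all genes, 10.5% and 19.8%, and cartilage matrix is at 32.3% in the right panel.

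Papss2 carried the most. Its 4 regions scored 275.73, 72.59, 346.52 and 169.38, all inside the gene, and its body with 20 kb on each side had 1.32 kb of peaks in the list labelled Sox9cKO E12.5, 1.33 kb in that labelled Sox9null E11.5, 10.25 kb in control E12.5 and 1.11 kb in control E11.5. The gene end itself was marked in all 4 lists. Matn4 had a second region 2.18 kb beyond the gene (320.98), and 1.68, 0, 6.46 and 1.90 kb in the same order of lists. Its gene end was marked in the list labelled Sox9cKO E12.5 and in both controls, at one end or the other. Cnmd, which encodes chondromodulin, an inhibitor of vessel growth in cartilage, had a region of score 284.8 in its body and 0, 1.01, 4.67 and 0.465 kb. Hapln1 had 2.76, 3.05, 5.79 and 2.13 kb.

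The other cartilage matrix genes ranged from broadly marked to nearly unmarked. Wwp2, host gene of Mir140, had 3 regions (272.81, 109.75 and 73.14) among 18, with 22.5, 33.5, 55.9 and 27.1 kb covered in the lists labelled Sox9cKO E12.5 and Sox9null E11.5, control E12.5 and control E11.5. Chst11, a chondroitin sulfotransferase, had 1 (326.38) among 8, with 8.77, 8.48, 18.3 and 10.6 kb. Col2a1, the gene of collagen II, had a single weak one (69.99) 4.23 kb away and 11.8, 11.8, 13.1 and 11.6 kb. Xylt1, which starts glycosaminoglycan chains, had 2 of up to 133.73. The collagen genes Col9a1, Col9a3 and Col27a1 and the matrix genes Matn3, Prelp and Ucma had 1 or 2 each, with scores of 50.97 to 94.21. Ucma had 0 kb of peaks in both deficient lists, 1.59 kb in control E12.5 and 0.716 kb in control E11.5. Among the 16 listed genes with none were Acan, Col9a2, Col11a1, Col11a2, Matn1, Comp and Fmod. The 14 genes were chosen for a region that only control E12.5 had, which by itself raises covered length there, so no order of the lists is read from them. At Col9a1, Col27a1 and Prelp another list covered more than control E12.5 did.

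**Figure D5:**
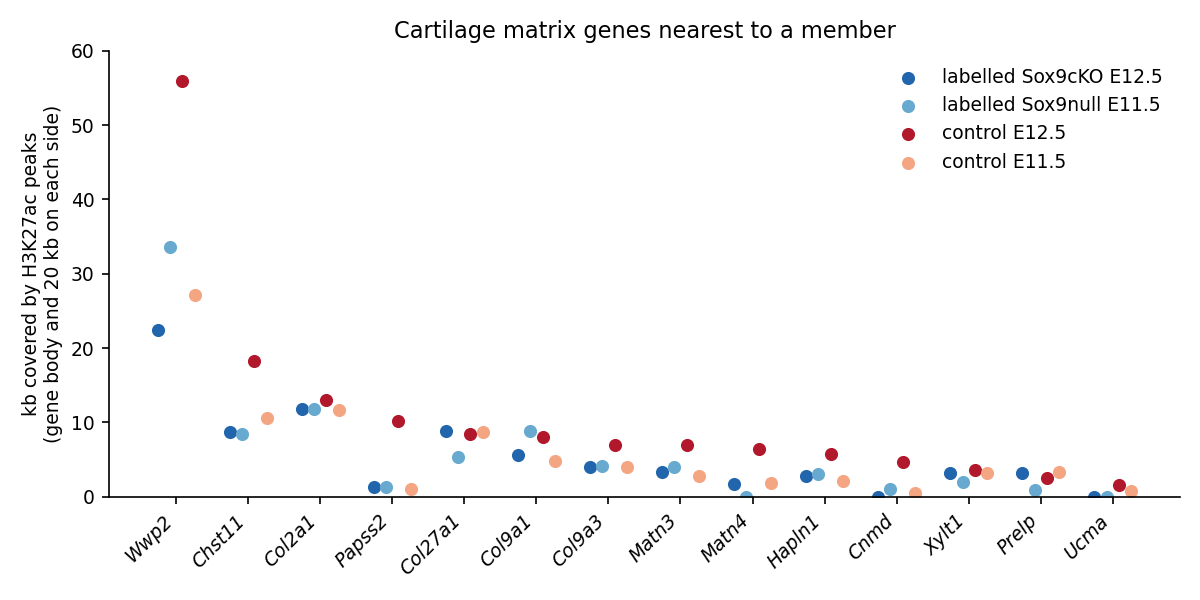
Length covered by H3K27ac peaks (kb, vertical axis, gene body and 20 kb on each side) in each of the 4 lists, for the 14 cartilage matrix genes nearest to 1 or more regions found only in control E12.5. Each point is 1 library; the choice of genes favours control E12.5, which has 10.25 kb at Papss2, and another list is highest at Col9a1, Col27a1 and Prelp.

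Chondrogenic regulators had many regions of ordinary strength. Of 30 genes 16 were nearest to one, with 81 of 345 E12.5 control regions (23.5%), and away from gene ends 80 of 321 (24.9%, 20.5 to 29.9%). Of the 81, 3 (3.70%) reached the median score of the list, against 2.09% over all regions. Sox5, whose product works beside SOX9, had 12 of its 30 E12.5 control regions in that list alone, with scores of up to 216.77 and distances of up to 292 kb. Sox6 had 8 of 27, up to 233.04. Peaks covered 20.3 kb in the list labelled Sox9cKO E12.5, 26.8 kb in that labelled Sox9null E11.5, 41.5 kb in control E12.5 and 28.03 kb in control E11.5 at Sox5, and 21.8, 32.6, 52.4 and 25.6 kb at Sox6.

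Sox9 itself had 7 regions among its 18, and all were weak and far. Their scores were 51.41 to 79.62 and their distances 26.2 to 344 kb. Its body with 20 kb on each side, where none of the 7 lay, had 6.90, 7.76, 8.77 and 7.80 kb in the lists labelled Sox9cKO E12.5 and Sox9null E11.5, control E12.5 and control E11.5. The Sox9 gene end was marked in every list, so H3K27ac at the gene gives no check of its loss.

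The other regulators ranged widely. Mef2c, a factor of chondrocyte and muscle maturation, had 3 regions inside the gene (175.44, 264.8 and 119.44), with 5.13, 7.14, 14.9 and 4.82 kb covered in the same order. Creb5, a factor of articular cartilage, had 8 (up to 240.2) among 42. Erg, an ETS factor of articular chondrocytes and endothelium, had 3 (up to 204.52) and 12.9, 19.3, 30.4 and 8.41 kb. Runx2, the regulator of chondrocyte maturation and bone, had 3 and Runx1 4, the highest at 113.95 and 151.15. Nfib had 9, Zfp521 8, Nfia 7, Trps1 4, Zbtb20 2, and Barx2 and Maf 1 each, with scores of up to 139.51 over these genes. Nkx3-2 had the one at its promoter.

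Among BMP and joint genes the share was close to the 19.8% of all genes. Of 29 genes, 10 were nearest to a region, with 21 of 105 E12.5 control regions away from gene ends (interval 13.5 to 28.6%). Of the 21, 0 reached the median score of the list, where the share over all regions was 2.09%. Bmpr1b, the BMP receptor gene needed for digit cartilage, stood out: 5 of its 7 E12.5 control regions were in that list alone, all inside the gene, scoring 54.73 to 199.43. Its covered length was 4.43 kb in the list labelled Sox9cKO E12.5, 2.59 kb in that labelled Sox9null E11.5, 10.3 kb in control E12.5 and 2.71 kb in control E11.5. Smad1, which carries BMP signals to the nucleus, had 2 inside the gene (128.54 and 56.18). Acvr2a had 6, all 274 kb or more away, Bmp4 2, and Bmp2, Gdf10, Bmpr2, Acvr1, Id2 and Bambi 1 each. The joint gene Gdf5 and the BMP antagonist Nog had none.

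Tendon and connective tissue genes held 36 of 143 E12.5 control regions away from gene ends (25.2%, 18.8 to 32.9%), from 11 of 22 genes. Tcf4, an E-protein transcription factor gene, had 11, Ebf1 and Ebf2 7 each and Osr1 4. At Ebf2, 2 lay at its gene end (160.64 and 63.37). No other list had a peak within 1000 bp of an Ebf2 gene end, but one in the list labelled Sox9cKO E12.5 lay 0.247 kb from the stronger region. Of those at Osr1, 1 lay at a gene end (111.31), and every list marked an Osr1 gene end. Col14a1, a fibril-associated collagen, had 2 regions inside the gene (79.28 and 107.04), its only E12.5 control regions, with 0, 0, 2.13 and 0.403 kb covered. Dcn and Col12a1 had 2, and Lum, Mkx, Osr2 and Fgf18 1 each. Scx and Tnmd, the best known tendon markers, had none.

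Condensation and adhesion genes held 48 of 168 away from gene ends (28.6%, 22.3 to 35.8%), from 17 of 25 genes, the largest share of genes of any list. They also had the widest reach of any list, being the nearest genes over 17.13 Mb, and 28 of the 48 regions were over 100 kb from the gene. Per Mb they had 2.80 regions, against 7.28 for tendon and connective tissue genes and 1.60 over all genes. Cdh11, a mesenchymal cadherin, had 8, the ephrin receptor gene Epha4 7, Thbs1 5 (up to 258.66) and Has2 3 (up to 341.38). Those of Epha4 lay 146 kb or more from the gene, those of Thbs1 129 kb or more, and those of Cdh11 18.1 to 613 kb. TGF-beta and Wnt genes held 40 of 193 (20.7%, 15.6 to 26.99%), led in length by Tgfbr2 (7), Ltbp1 (5), Sfrp2 (4, up to 225.01) and Dkk2 (5). Limb patterning genes held 43 of 201 (21.4%, 16.3 to 27.6%), with 9 at Gli3 and 3 each at Tbx5, Lmx1b and Lhx9. The highest at Tbx5 scored 279.31, and this gene had 32.6, 0, 3.76 and 31.7 kb covered in the lists labelled Sox9cKO E12.5 and Sox9null E11.5, control E12.5 and control E11.5. Peaks at Tbx5 were thus few or missing in the same lists in which its gene end was unmarked, and the part of limb position in its 3 regions was not tested.

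Growth plate and bone genes had 10 of 45 (22.2%, 12.54 to 36.3%), 7 regions at Fgfr2, 3 at Npr3 and the one at Pthlh. Skeletal muscle had 2 of 19 (10.5%, 2.94 to 31.4%), endothelium 11 of 49 (22.4%, 13.0 to 35.9%), erythroid and macrophage genes 7 of 35 (10.04 to 35.9%), ectoderm and ridge 8 of 33 (24.2%, 12.8 to 41.0%), nerve and glia 2 of 13 (15.4%, 4.33 to 42.2%) and housekeeping genes 0 of 11 (up to 25.9%). The share over all genes was 19.8%. Regions of a list often share a gene, so the intervals are no test of any list against that share. Cdh5 had 6 of the 11 endothelial regions, 49.5 kb or more away, and Erg 3, which the regulator list also holds. Myog, the muscle regulator gene, had 1 at its gene end (69.68), 0.074 kb from a peak of the list labelled Sox9cKO E12.5. Every list marked a Myog gene end.

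SOX-type sequences occurred in promoters covered by the regions at a share between those of the other marked promoters and of all promoters. ACAATG or AACAAT, searched on both strands (the motifs overlap in AACAATG), occurred in 17 of 120 windows (14.2%, 9.04 to 21.5%), against 10.6% (10.1 to 11.1%) of 13499 windows under other E12.5 control regions and 18.7% of all 32851 windows. The interval of 9.04 to 21.5% held both of those other shares. In windows under regions found only in the list labelled Sox9null E11.5 the share was 12 of 53 (22.6%, 13.5 to 35.5%). For the list labelled Sox9cKO E12.5 it was 53 of 470 (11.3%, 8.73 to 14.5%), and for control E11.5 37 of 301 (12.3%, 9.05 to 16.5%). The median GC content was 50.8% in windows under the regions found only in control E12.5, 49.7% in those of the list labelled Sox9null E11.5, 61.3% under other E12.5 control regions and 52.7% over all windows. The part of GC content in the motif shares was not tested. A match is a run of letters and not a bound site, and most regions lie outside promoters, where no sequence was searched.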

How the data were processed

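H3K27ac chromatin immunoprecipitation was sequenced in 4 limb bud libraries, 1 per group. Groups follow the sample titles, and the 20 libraries for other histone marks or input were not used here. The authors deposited 1 peak list per library with a position and a score per peak, whose scale the lists do not state, so it ranks peaks within a list only. Peak names give MACS as the caller. Per the submitters' processing notes, CASAVA 1.8 and deepTools were used with build mm10; for the aligner, the MACS version and settings and any use of input, the sources used here give nothing, and depth is unknown.

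Peaks sharing 1 bp were merged. Each region went to the nearest of 21887 protein-coding genes of RefSeq GRCm38.p6, the assembly that mm10 stands for. Gene ends reached 1000 bp, covered length took the gene body and 20 kb on each side, and windows were 100 kb. Named were the 25 highest-scored regions, the 12 fullest windows, the 12 genes with most regions, the 10 highest at gene ends, every gene with a region in the lists cartilage matrix, chondrogenic regulators, BMP and joint, and tendon, up to 4 genes of each other list by region length, and Sox9. Some genes under this rule are not reported here. Names outside it were chosen after their values were seen. All 356 listed genes matched. Members and gene lists were chosen with earlier results of these data known. Scripts ran under Python 3.11.15 with pandas 2.3.3, numpy 2.4.6 and scipy 1.17.1 (figures: matplotlib 3.10.9), and were checked on simulated data. Without a genome, SOX motifs were searched in promoter windows only.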

Additional observations from a re-analysis of the deposited data

How the results depend on the processing

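The 4301 regions depended most on the score: from the upper 50% of each list there were 1240, with 5.40% at a gene end, a median score of 305.63, 39 windows and 902 nearest genes. From E12.5 control peaks scoring 100 or more there were 1164, with a median of 132.76, 32 windows and 869 genes. In the upper 50%, 90 of the 4301 were among the 1240, with all of the 25 strongest and 8 of 22 at cartilage matrix genes; the others appeared because weaker peaks of the other lists were dropped. The same number of top peaks per list (28419) gave 4.04% at gene ends, a median of 100.335 and 181 windows. Merging peaks up to 1000 bp apart gave 173 windows and left out the regions at Gxylt2 and Foxp1. Counting a region as shared at 50% overlap gave a median of 83.23 and 572 windows. Without the list labelled Sox9cKO E12.5, gene ends were 3.85% and the median 77.09; without that labelled Sox9null E11.5 the median was 84.06 with 680 windows; without control E11.5 the values were 3.83% and 77.06. Gene ends of 500 and 2000 bp gave 2.42% and 4.81%, and windows of 50 kb numbered 210. The cause of each shift was not tested. Autosomes alone left every count and share listed here within 1.5 times or the counting interval; exchanging the deficient lists cannot change them, since a region had to be absent from both. Of 140 gene-list counts recomputed, 22 moved by over 1.5 times. The 140 include those with the deficient lists exchanged, which could not move. Cartilage matrix genes with a region went from 14 to 9 in the upper 50% and to 7 at scores of 100 or more. Chondrogenic regulators went from 16 to 14 and 13 in the same settings. Motifs in whole regions were not run without a genome. No paired analysis was possible because each group had 1 library. Unknown depth limits every absence reported, and how far an absent peak lay below the caller's threshold was not measured.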
